A study of Mus musculus with 16 samples.

Results

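The potassium channel genes of mouse sensory neurons were examined across 4 ganglia. A gene was taken if its symbol starts with Kcn, leaving out the Kcnip genes and Kcnrg, which encode interacting proteins, and if it had 10 or more reads in at least 4 of the 16 libraries. Of 90 such symbols among the 22609 symbols counted, 63 (70%) passed the threshold and are called the members, against 14180 (62.7%) of all symbols. The members fall into 19 subfamilies of channel genes, with Kcnq1ot1, an antisense RNA of the Kcnq1 locus that encodes no channel, counted apart because its symbol meets the rule.

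RNA came from neurons of naive adult male C57BL/6J mice that carried Pirt cre and a Rosa26 LSL-tdTomato reporter, so that cells in which the Pirt promoter has been active turn red. Trigeminal ganglia (TG), the nodose and jugular ganglion complex (NG/JG), L3-L5 dorsal root ganglia (L3-L5 DRG) and T10-L1 dorsal root ganglia (T10-L1 DRG) were dissociated, and bright tdTomato-positive cells were sorted in repeated cycles. Each ganglion is represented by 4 libraries of full-length cDNA, and no group received a treatment. The sources used here do not say whether the 4 libraries of a ganglion came from separate mice, so p-values measure only the spread between these libraries, which may be technical.

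Potassium channels let potassium leave the cell and so set the resting potential, end the action potential and limit repeated firing. Channels of the Kv group (Kcna to Kcnd, Kcnh and Kcnq) open on depolarisation, Kcnf, Kcng, Kcns and Kcnv subunits pass no current alone and alter Kcnb channels, Kcnj channels rectify inwardly, and Kcnk channels carry leak current. Kcnma, Kcnn and Kcnt channels open with intracellular calcium or sodium. Kcnab, Kcne and Kcnmb genes encode auxiliary subunits. In sensory neurons these channels are known for A-type and delayed currents that differ between fibre classes, while Kir4.1, encoded by Kcnj10, is the main potassium channel of the satellite glia around each neuron.

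Libraries held 4735624 to 13333318 reads on genes, and 29.6% to 66.6% of the uniquely aligned reads fell outside genes, most in L3-L5 DRG library 4. TG library 1 stood apart within TG, with reads on 11527 genes against 14441 to 15354 in the other TG libraries. The NG/JG libraries had reads on 13029, 11314, 12310 and 10132 genes, and the dorsal root ganglion libraries on 13617 to 18571. Fewer genes of any kind were thus detected in NG/JG than in the dorsal root ganglia. The 10 sensory neuron markers, among them Pirt, Avil and Scn10a, summed to 938 to 3471 CPM (reads scaled to library size) in TG, 1443 to 4955 in NG/JG, 2093 to 3992 in T10-L1 DRG and 1229 to 12000 in the L3-L5 DRG libraries. Markers of satellite glia summed to 14320 to 74230 CPM and were above the neuron markers in every library, although the sort was meant to keep neurons only. In bulk samples, fewer cells of a type and less RNA per cell cannot be told apart.

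Levels are given as RPKM, reads scaled to exon length and to the reads on genes, which can be compared between genes. Kcna1, the Kv1.1 subunit of low-threshold delayed current, had the highest mean level of all members in each ganglion, at 131.5 ± 35.7 RPKM in TG, 145 ± 40.6 in NG/JG, 141 ± 23.9 in T10-L1 DRG and 90.1 ± 67.4 in L3-L5 DRG (SD, n = 4 in each). Shares of reads were taken over the 62 members with a known exon length, which leaves out Kcnq1ot1. Kcna1 took 46.8% to 57.2% of these reads in the TG libraries and 30.01% to 60.4% in NG/JG. Its share was 39.4% to 47.2% in T10-L1 DRG and 8.54% to 46.9% in the L3-L5 DRG libraries. The low end came from L3-L5 DRG libraries 2 and 3, where Kcna1 had 34.4 and 29.2 RPKM and where the sensory neuron markers were highest, at 10650 and 12000 CPM. In the 14 other libraries its level was between 88.7 and 177 RPKM.

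The channels next to Kcna1 were also found in every ganglion. Kcnk1, the leak channel TWIK1, averaged 60.4 ± 36.2 RPKM in TG, 55.6 ± 51.2 in NG/JG, 28.6 ± 15.9 in T10-L1 DRG and 43.1 ± 22.2 in L3-L5 DRG, but had 3 reads in NG/JG library 4. Kcnn4, a calcium-activated channel of intermediate conductance, averaged 35.2 to 41.7 RPKM in the 4 ganglia and varied little between the 16 libraries (coefficient of variation 30.2%). Kcnj10 averaged 23.1 to 29.4 RPKM and was the least variable member, with a coefficient of variation of 29.3%. The median coefficient of variation was 123.5% over the 63 members and 81.7% over all 14180 genes past the same threshold, so most channel genes varied more between libraries than the typical gene did.

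**Figure D1:**
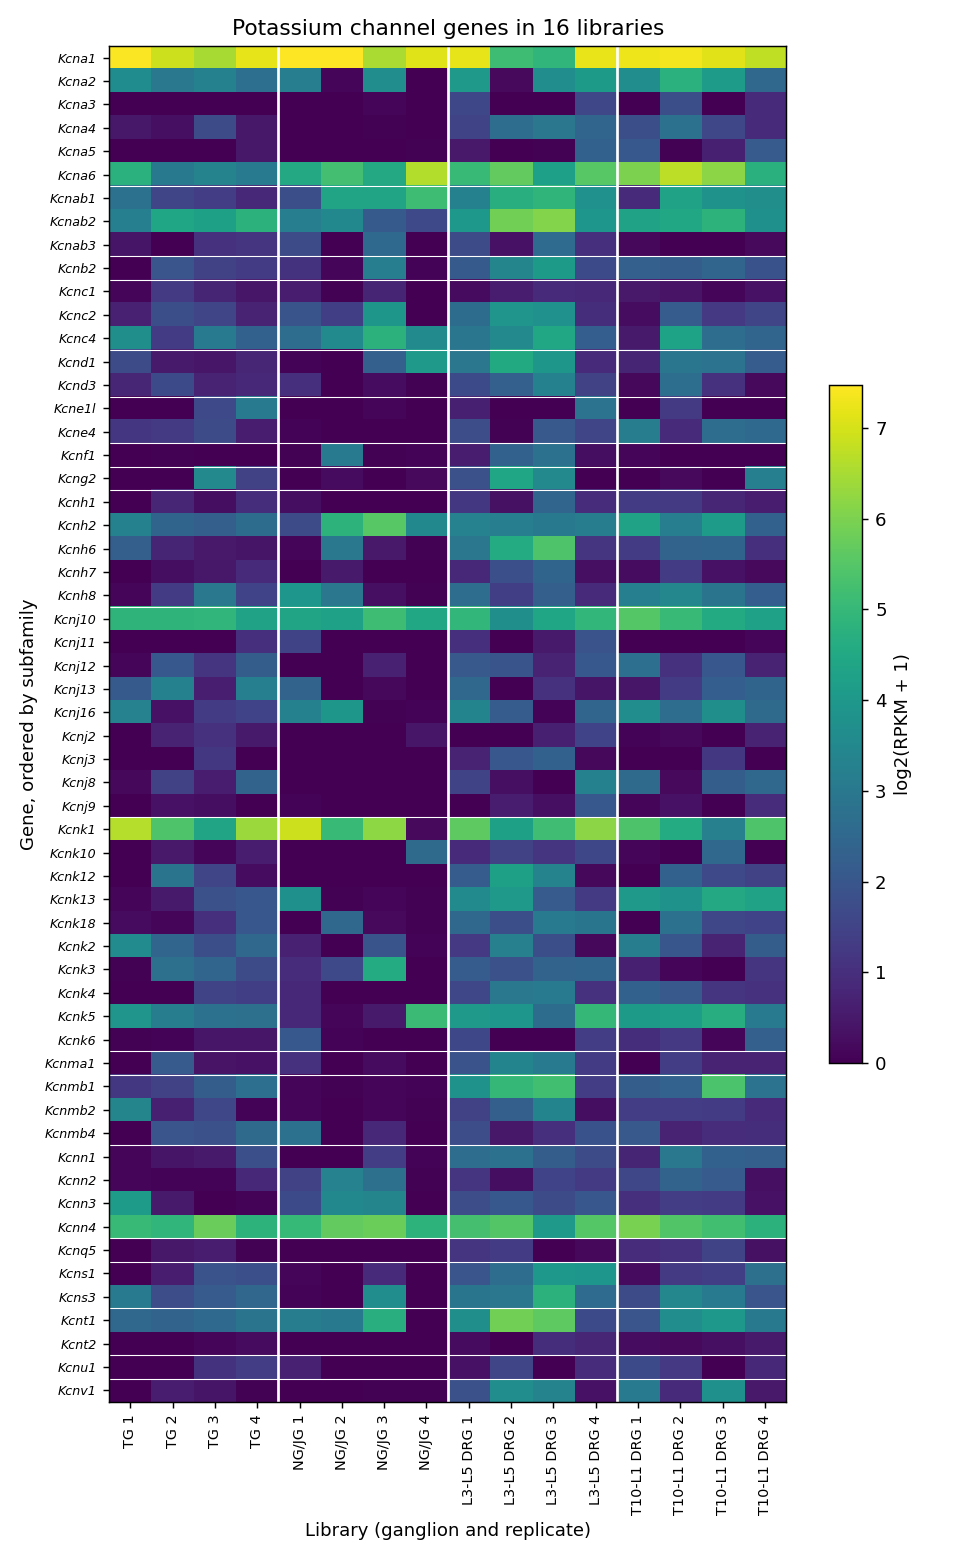
Level of 58 of the 62 members with a known exon length in each of the 16 libraries, coloured by log2(RPKM + 1), with genes in subfamily order and white lines between ganglia. Kcna1, Kcnn4 and Kcnj10 are bright in every column. Of all 62, 29 had their lowest mean RPKM in NG/JG (46.8%, against 31.5% of all genes) and 21 in TG (33.9%, against 40.4%). NG/JG library 4 had the fewest members at 10 or more reads.

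Members seen at 10 or more reads were counted among the 62 with a known exon length, which leaves out Kcnq1ot1. Their number was 26 to 45 in the TG libraries, 14 to 35 in NG/JG, 43 to 56 in T10-L1 DRG and 48 to 59 in the L3-L5 DRG libraries. In NG/JG, 15 members had 3 reads or fewer in every library, which is 23.8% of the members against 8.17% of all genes past the threshold. The same held for 2 members in TG (3.17% against 1.64%), for 2 in T10-L1 DRG (3.17% against 0.31%) and for none in L3-L5 DRG (0.0% against 0.247%). A further 19 members (30.2%, against 31.1% of all genes) were uneven within NG/JG, with 1 read or fewer in one library and 100 or more in another, and this share is near that of all genes. The mean level was highest in L3-L5 DRG for 32 of 62 members (51.6%, against 28.7% of all genes), in T10-L1 DRG for 14 (22.6% against 22.2%), in NG/JG for 9 (14.5% against 26.3%) and in TG for 7 (11.3% against 22.8%).

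Summed by subfamily, Kcna genes led in every ganglion, at 153 ± 43.4 RPKM in TG, 194.5 ± 48.9 in NG/JG, 228 ± 64.7 in T10-L1 DRG and 144 ± 77.8 in L3-L5 DRG. Kcnk genes followed in each at 75.9 to 93.7 RPKM, Kcnn genes averaged 40.7 to 50.9 RPKM and Kcnj genes 31.1 to 47.3, and the ranges of the libraries overlapped between the ganglia for each of these subfamilies. The Kcnab subunits, which bind Kcna channels, averaged 21.7 ± 5.82 RPKM in TG and 59.8 ± 38.6 in L3-L5 DRG. The Kcnmb subunits of the large-conductance calcium-activated channel averaged 1.79 ± 2.87 RPKM in NG/JG, 8.81 ± 2.65 in TG, 16.3 ± 17.5 in T10-L1 DRG and 25.7 ± 18.6 in L3-L5 DRG. The channel itself, Kcnma1, was low throughout, from 0.321 ± 0.533 RPKM in NG/JG to 5.26 ± 3.73 in L3-L5 DRG.

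**Figure D2:**
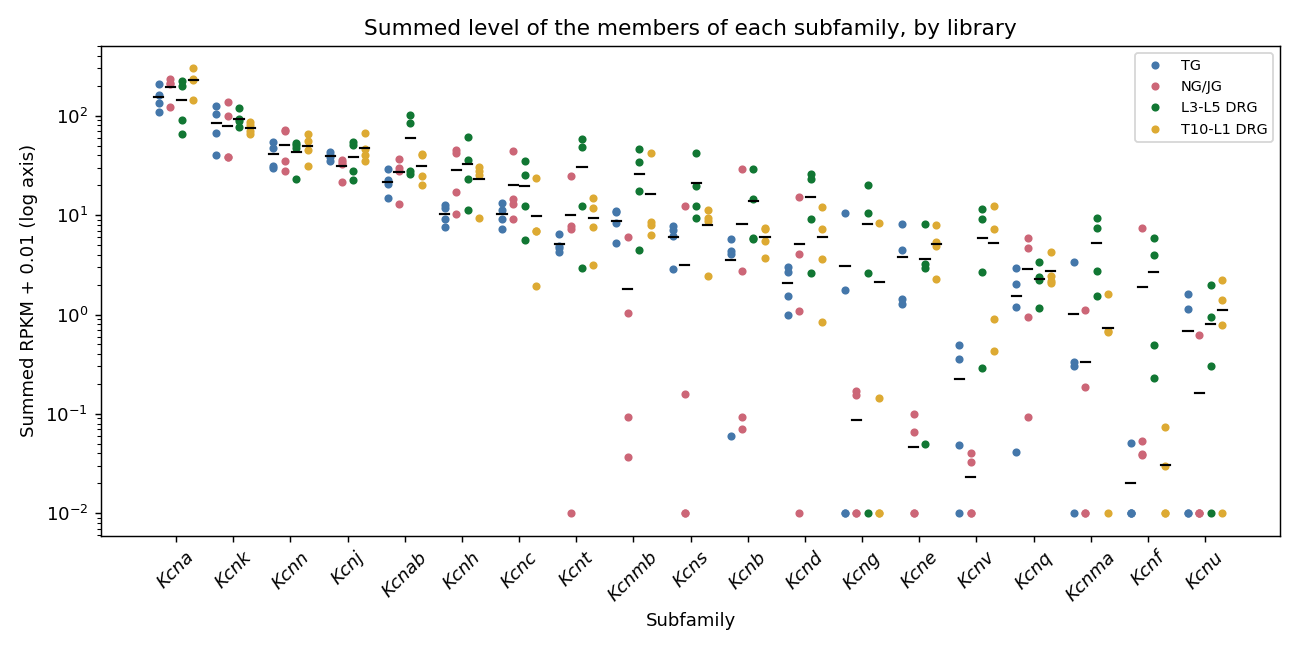
Summed RPKM of the members of each subfamily on a log axis, with 0.01 added so that 0 can be shown. Points are libraries, coloured by ganglion, and black bars are means of 4 libraries. The Kcna, Kcnk, Kcnn and Kcnj sums overlap between ganglia. Points at a sum of 0 occur in NG/JG alone for Kcnd, Kcne, Kcns and Kcnt. They occur in NG/JG and in other ganglia for Kcng, Kcnma, Kcnu and Kcnv, and in TG and T10-L1 DRG for Kcnf.

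In a test over all 16 libraries, 3 members differed between the 4 ganglia. These were Kcnmb1 (adjusted p = 0.0105), Kcna4 (adjusted p = 0.0253) and Kcnv1 (adjusted p = 0.0441), by the quasi-likelihood F test of edgeR with Benjamini-Hochberg adjustment over 14236 genes. They make up 4.84% of the 62 members tested, against 3.01% of all genes tested, so a share of this size is close to that of all genes. At an unadjusted p under 0.05, 17 members passed (27.4%, against 17.5%). Kcne4 (adjusted p = 0.0860), Kcnab2 (0.101) and Kcnf1 (0.107) came next and did not pass. DESeq2 called 12 of 63 members (19%, against 9.48% of all genes), and without TG library 1 edgeR called 4 of 63 (6.35%, against 6.98%). DESeq2 tested 19704 genes without a read filter, so its share of all genes includes genes below the members' read threshold. Members and all genes are thus not like sets in this DESeq2 result or in those below.

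Kcnmb1 encodes the beta1 subunit that raises the calcium sensitivity of the large-conductance channel and is best known from smooth muscle. The gene lies on chromosome 11, from 33863013 to 33873641 on the plus strand (mm9), and shares no exon with another annotated gene. It had 3, 1, 3 and 2 reads in the NG/JG libraries, 44, 38, 89 and 136 in TG, 99, 182, 2050 and 344 in T10-L1 DRG and 576, 1276, 1853 and 31 in L3-L5 DRG. Every NG/JG library was below each of the other 12. Counted against 3 reads per library, the mean level was higher than in NG/JG by 35.2-fold for TG, 153-fold for T10-L1 DRG and 230.5-fold for L3-L5 DRG. NG/JG libraries 1 and 3 reached 3 reads, so these folds leave no room for counting error and are not lower limits. The fold for T10-L1 DRG rested on library 3 and was 52.4-fold without it. The adjusted p over the 4 ganglia stayed between 0.00434 and 0.0463 when each library was left out in turn.

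Kcna4 encodes Kv1.4, a fast-inactivating subunit known from small-diameter nociceptors. It lies on chromosome 2, from 107130796 to 107138659 on the plus strand (mm9). It had 0, 0, 1 and 0 reads in NG/JG, 15, 6, 63 and 11 in TG, 79, 306, 117 and 57 in T10-L1 DRG and 95, 260, 403 and 102 in L3-L5 DRG, so NG/JG again lay below all other libraries. Kcna4 and Kcnmb1 were the only members with this pattern, 3.17% of the members against 1.08% of all genes. Counted against 3 reads per library, the mean level of Kcna4 was higher than in NG/JG by 10.7-fold for TG, 37.1-fold for T10-L1 DRG and 60.5-fold for L3-L5 DRG. NG/JG library 3 held 1 read, so these folds are not lower limits. The fold was 4.51 for TG without library 3 and 23.3 for T10-L1 DRG without library 2. The adjusted p of Kcna4 rose above 0.05 without TG libraries 2, 3 or 4, L3-L5 DRG libraries 2 or 3, or T10-L1 DRG library 2, to at most 0.104.

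In these 2 members alone, NG/JG lay below all other libraries. The 250 bases before their RefSeq start sites are shown for comparison (GRCm38.p6, plus strand, 5′ to 3′). Capitals mark the GC box (GGGCGG on either strand) and the E-box (CANNTG, the same on both strands), which do not overlap in either sequence. The windows are chr11:33962763-33963012 for Kcnmb1 and chr2:107290339-107290588 for Kcna4.
Kcnmb1: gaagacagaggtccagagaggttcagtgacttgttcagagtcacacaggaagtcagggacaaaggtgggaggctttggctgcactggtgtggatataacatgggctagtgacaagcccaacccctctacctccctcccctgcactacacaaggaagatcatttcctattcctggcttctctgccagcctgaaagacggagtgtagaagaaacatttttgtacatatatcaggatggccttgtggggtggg
Kcna4: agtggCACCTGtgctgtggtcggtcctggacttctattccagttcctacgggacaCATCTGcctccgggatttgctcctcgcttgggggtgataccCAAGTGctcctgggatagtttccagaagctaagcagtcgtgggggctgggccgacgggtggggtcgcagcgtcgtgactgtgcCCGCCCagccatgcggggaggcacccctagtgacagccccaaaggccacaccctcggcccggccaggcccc

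The 2 windows had little in common. Kcna4 held 1 GC box, 71 bases before the start, 3 E-boxes and 14 CpG, with 65.2% G and C. Kcnmb1 held neither motif and 1 CpG, with 50.8% G and C. Among 32536 RefSeq windows of this length, 33% held a GC box and 66.2% an E-box, and the median was 6 CpG. Of the members, 47 had a window in the RefSeq table, and 43.8% of their 64 windows held a GC box. A match says only that the letters are there.

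Kcnv1 encodes Kv8.1, a silent subunit that changes the gating of Kcnb channels, and lies on chromosome 15, from 44937830 to 44946480 on the minus strand (mm9). It had 0, 11, 9 and 1 reads in TG, 0, 0, 1 and 1 in NG/JG, 213, 42, 675 and 25 in T10-L1 DRG and 122, 526, 500 and 6 in L3-L5 DRG. Both cranial ganglia were low, but TG library 2, at 0.481 RPKM, was above library 4 of L3-L5 DRG and of T10-L1 DRG, at 0.282 and 0.417. The mean level was 0.216 ± 0.234 RPKM in TG, 5.22 ± 5.68 in T10-L1 DRG and 5.92 ± 5.34 in L3-L5 DRG, with NG/JG at the floor. The call was held by few settings, since the adjusted p was under 0.05 without TG library 1 or L3-L5 DRG library 4 and between 0.0539 and 0.134 in the 14 other cases in which 1 library was left out.

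**Figure D3:**
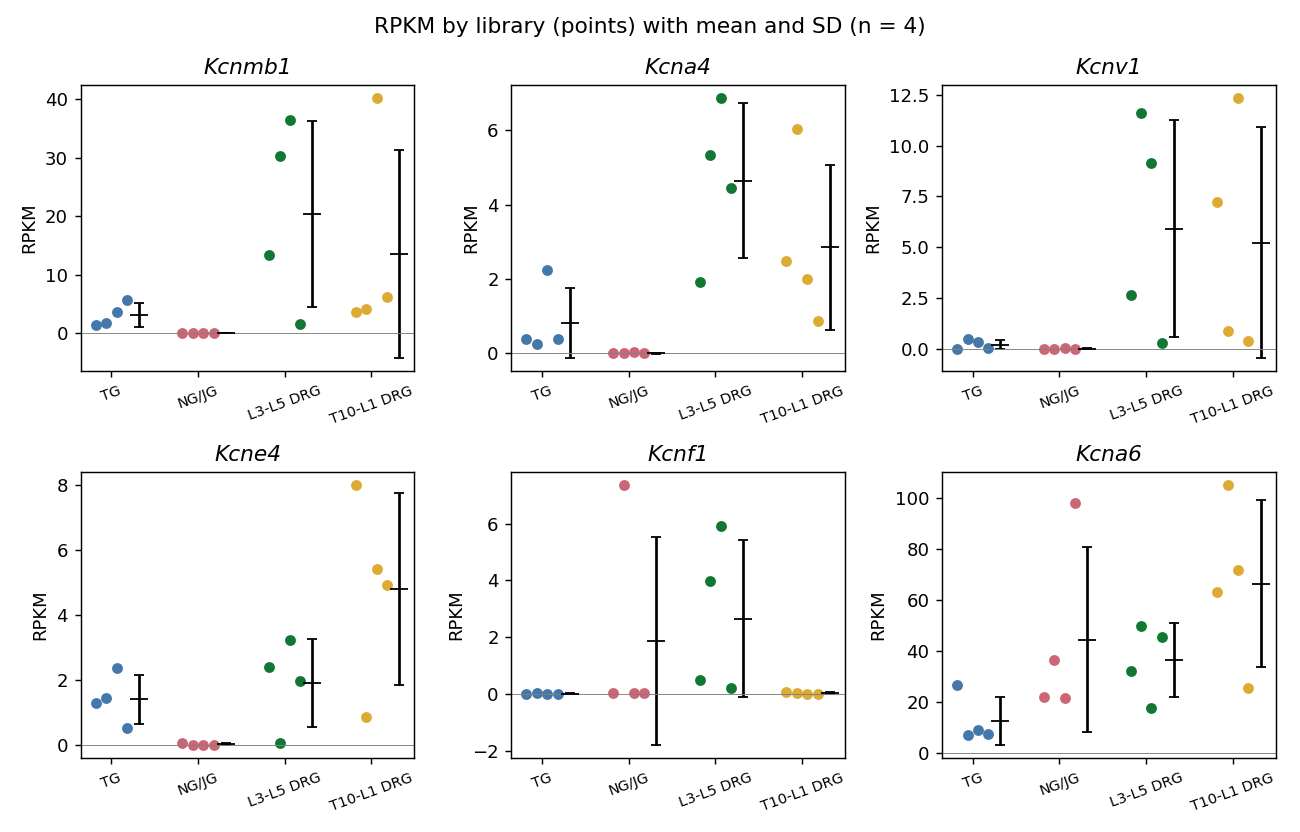
RPKM of 6 members in each library (points, coloured by ganglion), with the mean and SD of 4 libraries in black, each gene on its own linear axis. Kcnmb1, Kcna4, Kcnv1 and Kcne4 lie at or near 0 in every NG/JG library, Kcnf1 is carried by NG/JG library 2 and L3-L5 DRG libraries 2 and 3, and Kcna6 has its lowest mean in TG.

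NG/JG was compared with each dorsal root ganglion group on the 8 libraries concerned. No member was called against L3-L5 DRG or against T10-L1 DRG at an adjusted p under 0.05 by edgeR (0 of 46 and 0 of 49 tested, with 0.0% and 0.0322% of all genes called). At an unadjusted p under 0.05, 7 members passed against L3-L5 DRG (15.2%, against 6.04%) and 8 against T10-L1 DRG (16.3%, against 5.91%), and DESeq2 called 13 (22.4%, against 4.42%) and 10 (18.5%, against 5.22%). The direction was uneven, as 6 of the 7 and all 8 were lower in NG/JG, which is 13% and 16.3% of the members tested against 3.68% and 4.06% of all genes in that direction. Higher in NG/JG were 1 member against L3-L5 DRG (2.17%, against 2.35%) and 0 against T10-L1 DRG (0.0%, against 1.85%). The counts at an unadjusted p moved with single libraries, to 13 to 20 against L3-L5 DRG and 15 to 18 against T10-L1 DRG without any one NG/JG library, and to 4 against L3-L5 DRG without its library 3. The smallest adjusted p among members was 0.168 against L3-L5 DRG and 0.115 against T10-L1 DRG. With all 16 libraries in one edgeR fit, Kcnmb1 and Kcna4 were called as lower in NG/JG in both comparisons, which is 3.23% of 62 members against 0.583% of all genes for L3-L5 DRG and 0.379% for T10-L1 DRG.

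The same direction appeared without a model. All 4 NG/JG libraries lay below all 4 L3-L5 DRG libraries in normalized CPM for 15 members (23.8%, against 5.68% of all genes) and below all 4 T10-L1 DRG libraries for 12 (19.0%, against 7.31%). The reverse held against L3-L5 DRG for Kcnq1ot1 alone (1.59%, against 1.87%) and against T10-L1 DRG for no member (0.0%, against 1.81%). The median log2 fold change, NG/JG over L3-L5 DRG, was -0.81 over the 46 members and 0.01 over all genes, and NG/JG over T10-L1 DRG it was -0.60 over the 49 members and 0.02 over all genes. Over the 5 other fits of all libraries the members' median ranged from -2.55 to -0.77 against L3-L5 DRG, with -0.58 to 0.04 over all genes, and from -3.01 to -0.56 against T10-L1 DRG, with -0.65 to 0.07 over all genes. The members' median lay below that of all genes in each of these fits, with differences of -1.97 to -0.82 and of -2.35 to -0.63. With 1 library left out it ranged from -1.74 to -0.55 against L3-L5 DRG and from -1.54 to -0.39 against T10-L1 DRG. Setting the tested members at the floor in NG/JG to their bound (3 against L3-L5 DRG and 6 against T10-L1 DRG) could not move either median. These members lay below it before and after. The 10 small-fibre neuron markers summed to 51.8 to 839 CPM in NG/JG and 847 to 2300 in T10-L1 DRG. In the L3-L5 DRG libraries they summed to 621 to 8196 CPM. Some single markers overlapped between NG/JG and T10-L1 DRG and others did not. Calca had 427, 1821, 36 and 20 reads in NG/JG and 9457, 5385, 14889 and 3044 in T10-L1 DRG. Trpv1 overlapped, with 129, 480, 1395 and 1 reads in NG/JG and 464, 397, 162 and 142 in T10-L1 DRG. P2rx3, Trpa1 and Mrgpra3 also overlapped, with the highest single count in NG/JG. However, P2rx3 had 6 reads in NG/JG library 4, and Mrgpra3 had 1 read or fewer outside NG/JG library 3. In L3-L5 DRG the highest counts of Trpv1, P2rx3, Trpa1 and Mrgpra3 were 7451, 6077, 2511 and 203, each above the highest in NG/JG. The part of these markers in the results was not tested.

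Among the members low in NG/JG was Kcnab2, an auxiliary subunit of Kcna channels. It had 326, 498, 134 and 116 reads in NG/JG, 690, 1258, 1870 and 931 in T10-L1 DRG and 854, 3288, 4581 and 376 in L3-L5 DRG. Scaled by depth, the NG/JG libraries lay below all libraries of both. The log2 fold change, NG/JG over L3-L5 DRG, was -2.62 ± 0.72 (SE; unadjusted p = 0.00448 and adjusted p = 0.231 by edgeR). Kcnab1, another subunit of this kind, did not share the direction, with 19.2 ± 13.3 RPKM in NG/JG and 18.8 ± 9.59 in L3-L5 DRG.

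Kcne4, an auxiliary subunit that inhibits some Kcna and Kcnq channels, had 1, 0, 0 and 0 reads in NG/JG and 130, 22, 163 and 163 in T10-L1 DRG, with 25, 18, 34 and 7 in TG and 61, 1, 97 and 23 in L3-L5 DRG. Counted against 3 reads per library, its mean level was higher than in NG/JG by 32.1-fold for T10-L1 DRG and 9.29-fold for TG. NG/JG library 1 held 1 read, so these folds are not lower limits. Kcnk12, a halothane-inhibited leak channel, was at 0 in every NG/JG library and had 70, 349, 214 and 1 reads in L3-L5 DRG. Kcnj3, a G protein-gated inward rectifier subunit, was likewise at 0 in NG/JG, with 35, 160, 255 and 3 reads in L3-L5 DRG. A count of 0 allows up to 3 reads in a library, that is 0.310 to 0.417 CPM in NG/JG. In both genes the L3-L5 DRG level rested on libraries 1 to 3.

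Some members were well above the floor in NG/JG. Kcnh2, the Erg1 channel that slows repeated firing, averaged 21.3 ± 19.0 RPKM in NG/JG, 11.8 ± 6.87 in T10-L1 DRG, 8.09 ± 0.758 in L3-L5 DRG and 5.50 ± 2.25 in TG. The NG/JG mean came from libraries 2 and 3, at 27.7 and 44.99 RPKM, and library 1 was at 2.33, so the ranges overlapped. Kcnc4, a fast-repolarising Kv3 channel, averaged 13.5 ± 9.40 RPKM in NG/JG and 10.5 ± 7.61 in L3-L5 DRG. Kcnq1ot1, the antisense RNA, had 872, 1519, 1115 and 1885 reads in NG/JG against 829, 819, 698 and 562 in L3-L5 DRG (log2 fold change 1.08 ± 0.40, SE; adjusted p = 0.592 by edgeR).

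TG was compared with each other ganglion. Against T10-L1 DRG, 1 of 52 members was called by edgeR (1.92%, against 5.87% of all genes), a share below that of all genes. At an unadjusted p under 0.05 there were 5 members (9.62%, against 21.6%), 2 higher in TG (3.85%, against 12.9%) and 3 higher in T10-L1 DRG (5.77%, against 8.78%), a count that was 13 without TG library 1, 8 without T10-L1 DRG library 1 and 2 without T10-L1 DRG library 3, and DESeq2 called 4 of 59 (6.78%, against 12.1%). The member called by edgeR was Kcna6, the Kv1.6 subunit, which had 1240, 214, 319 and 247 reads in TG and 2441, 6550, 5179 and 2023 in T10-L1 DRG. In RPKM, TG was at 12.5 ± 9.37 and T10-L1 DRG at 66.3 ± 32.7, with TG library 1 at 26.5 above T10-L1 DRG library 4 at 25.6. The log2 fold change, TG over T10-L1 DRG, was -2.08 ± 0.50 (SE, adjusted p = 0.0405).

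The Kcna6 call did not survive several changes. The adjusted p was 0.0925 to 0.134 without TG library 2, 3 or 4 or T10-L1 DRG library 1, 2 or 3, and 0.0820 with all 16 libraries in one fit, where 0 members were called (0.0%, against 1.67% of all genes), while it was 0.00149 without TG library 1 and 0.0487 without T10-L1 DRG library 4. The gene, on chromosome 6 from 126658347 to 126690680 on the minus strand (mm9), shares 39.5% of its exon length with Gm17456 on the other strand, and the strand setting of the counting is not given in the sources used here. Kcna6 was also lower in TG than in NG/JG (log2 fold change -1.77 ± 0.65, SE; adjusted p = 0.339 by edgeR) and than in L3-L5 DRG (-1.23 ± 0.48; adjusted p = 0.202 by edgeR), and neither difference passed.

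Against L3-L5 DRG, 0 of 55 members were called by edgeR (0.0% of all genes called), 10 had an unadjusted p under 0.05 (18.2%, against 18.2% of all genes), and DESeq2 called 6 of 61 (9.84%, against 8.41%). With all 16 libraries in one fit, edgeR called 0 of 62 (0.0%, against 1.45%). Of these 10, 8 were lower in TG (14.5%, against 8.02% of all genes in that direction) and 2 higher (3.64%, against 10.1%), and without L3-L5 DRG library 2 the count was 4. Members were lower in TG in 38 of 55 cases, with a median log2 fold change, TG over L3-L5 DRG, of -1.05 against -0.03 for all genes. With 1 library left out, the members' median ranged from -1.46 to -0.52, with differences from all genes of -1.34 to -0.47. Without TG library 1, 6 members were called (10.5%, against 15.2% of all genes), so that this library decided the count. They were Kcnab1, Kcna6, Kcnh6, Kcnd1 and Kcnf1, lower in TG, and Kcnq1ot1, higher in TG.

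Kcnab1 had the smallest p of the members in this comparison. It had 411, 86, 78 and 40 reads in TG and 767, 2186, 2984 and 521 in L3-L5 DRG, and the ranges of normalized CPM did not overlap, as in 3 members in this direction (4.76%, against 8.62% of all genes), while no member had TG wholly above (0.0%, against 5.57%). The log2 fold change, TG over L3-L5 DRG, was -2.58 ± 0.64 (SE, adjusted p = 0.0859 by edgeR), and without TG library 1 it was -3.26 ± 0.57 (adjusted p = 0.00795). Kcnd1, the Kv4.1 A-type channel, had 94, 12, 11 and 22 reads in TG and 371, 1186, 922 and 21 in L3-L5 DRG, which overlapped (log2 fold change -3.28 ± 0.97, SE; adjusted p = 0.116 by edgeR).

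Without TG library 1, the comparison with T10-L1 DRG called 7 members (13%, against 26.7% of all genes). Among them Kcna6, Kcnk13, Kcnj16, Kcnd1 and Kcnab1 were lower in TG. Kcnk13, a halothane-inhibited leak channel, was at 0.0816, 0.443, 2.65 and 3.05 RPKM in TG and at 15.4, 13.03, 21.7 and 18.8 in T10-L1 DRG, so the groups did not overlap. The log2 fold change, TG over T10-L1 DRG, was -3.09 ± 0.94 with all libraries (SE, adjusted p = 0.0808 by edgeR). Kcnk13 was 1 of 2 members with T10-L1 DRG wholly above TG (3.17%, against 10% of all genes), and no member had TG wholly above (0.0%, against 6.37%).

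Between TG and NG/JG, 0 of 38 members were called by edgeR (0.051% of all genes), 4 had an unadjusted p under 0.05 (10.5%, against 10%) and DESeq2 called 7 of 54 (13%, against 5.29%). Without TG library 1, edgeR called 0 of 45 (0.0%, against 2.58%), and with all 16 libraries in one fit it called Kcnmb1, Kcna4 and Kcne4 (4.84% of 62 members, against 3.4%). The 4 were split evenly in direction, with Kcnmb1 and Kcnab2 higher in TG (5.26%, against 5.54% of all genes) and Kcnab1 and Kcna6 higher in NG/JG (5.26%, against 4.49%). The split was uneven in other fits, with 12 higher and 4 lower in TG by DESeq2, 13 and 5 with all 16 libraries in one fit and 9 and 4 without a filter on low counts, and the count was 8 to 10 without any one NG/JG library. All 4 TG libraries lay above all 4 NG/JG libraries for Kcna4, Kcne4, Kcnj8 and Kcnmb1 (6.35%, against 5.51% of all genes), and the reverse held for no member (0.0%, against 3.31%). Kcnab1 averaged 2.60 ± 2.36 RPKM in TG and 19.2 ± 13.3 in NG/JG, whereas Kcnab2 averaged 18.5 ± 7.68 in TG and 5.94 ± 3.82 in NG/JG. The log2 fold changes, TG over NG/JG, were -2.80 ± 0.85 and 1.88 ± 0.69 (SE, adjusted p = 0.211 and 0.327 by edgeR).

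**Figure D4:**
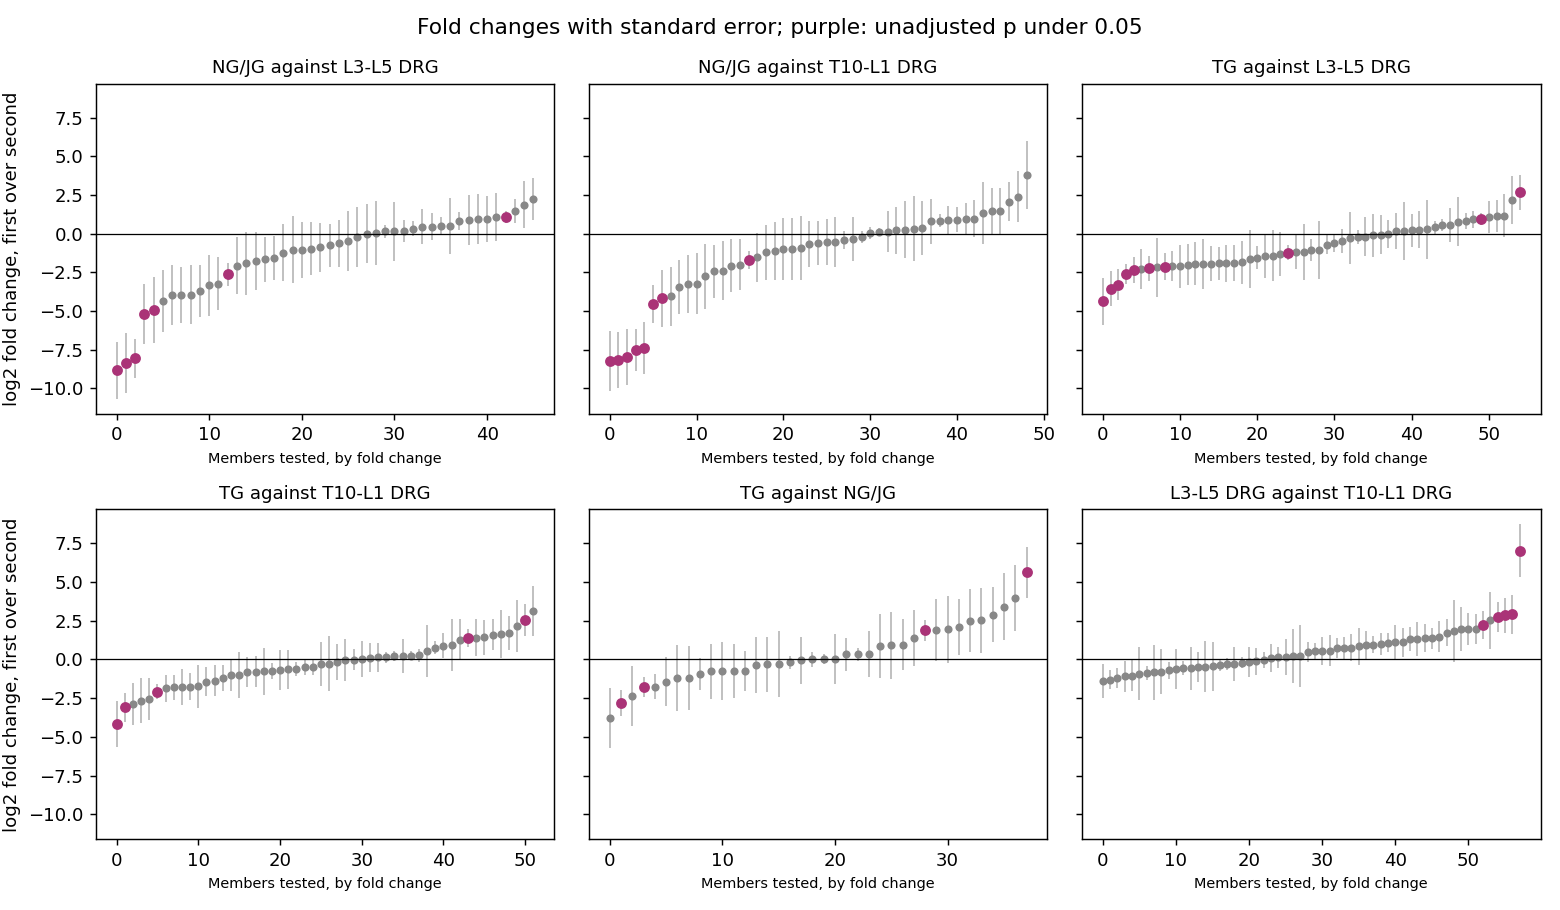
Log2 fold change of each member tested, with its standard error, sorted within each of the 6 comparisons and given as the first ganglion over the second. Purple points have an unadjusted p under 0.05, and they lie on the low side in both comparisons of NG/JG with dorsal root ganglia, except Kcnq1ot1 against L3-L5 DRG, and on the high side in L3-L5 DRG against T10-L1 DRG. Values near -8 belong to members at the floor in NG/JG and depend on the prior count.

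The 2 dorsal root ganglion groups were compared to see whether spinal level matters. No member was called by edgeR (0 of 58, with 0.0% of all genes called), 5 had an unadjusted p under 0.05 (8.62%, against 6.07%) and DESeq2 called 2 of 63 (3.17%, against 0.4%). The 5 were Kcnf1, Kcnh6, Kcnma1, Kcnc2 and Kcnk3, all higher in L3-L5 DRG (8.62%, against 3.35% of all genes in that direction) with none higher in T10-L1 DRG (0.0%, against 2.72%), and members were higher in L3-L5 DRG in 35 of 58 cases, with a median log2 fold change, L3-L5 over T10-L1 DRG, of 0.51 against 0.03 for all genes. With 1 library left out, the members' median ranged from 0.19 to 0.77, with differences from all genes of 0.17 to 0.74. The lowest came without L3-L5 DRG library 3. The adjusted p of each of the 5 was 0.785. The count of 5 was 1 without L3-L5 DRG library 3, 8 without its library 1, 10 without its library 4 and 9 without T10-L1 DRG library 4, and without L3-L5 DRG library 2 there were 4 higher and 2 lower.

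Kcnf1 encodes Kv5.1, a silent subunit of Kcnb channels. It had 24, 191, 344 and 5 reads in L3-L5 DRG and 2, 1, 0 and 0 in T10-L1 DRG. The groups did not overlap, but the closest libraries had 5 and 2 reads. Counted against 3 reads per library, the mean was 41.7-fold higher, or 24.5-fold without L3-L5 DRG library 3. T10-L1 DRG libraries 1 and 2 held reads, so these folds are not lower limits. Kcnf1 is one of 4 members with L3-L5 DRG wholly above T10-L1 DRG, beside Kcnab3, Kcnk3 and Kcnn3 (6.35%, against 1.85% of all genes), and none lay wholly below (0.0%, against 1.97%). TG held 0, 1, 0 and 0 reads of Kcnf1. In NG/JG it had 1, 310, 1 and 2 reads, so that a single library carried its mean.

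Kcnt1 and Kcnh6 followed the neuron markers within L3-L5 DRG. Kcnt1, the sodium-activated Slack channel, was at 12.1, 57.8, 48.0 and 2.22 RPKM in L3-L5 DRG libraries 1 to 4, where the sensory neuron markers summed to 3853, 10650, 12000 and 1229 CPM. Kcnh6, the Erg2 channel, was at 6.73, 23.0, 41.7 and 1.21 RPKM in the same libraries. Outside L3-L5 DRG, Kcnh6 reached 7.01 RPKM at most, while Kcnt1 was at 24.6 RPKM in NG/JG library 3 and had 0 reads in NG/JG library 4. The part of the neuron markers in the difference between L3-L5 and T10-L1 DRG was not tested.

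Members known from other cells of the ganglion were set beside the markers of those cells. Kcnj10 had 580 to 1792 reads in the 16 libraries, and the 10 satellite glia markers were all detected in each ganglion, at 37330 to 74230 CPM in TG, 34970 to 48380 in NG/JG, 25110 to 35200 in T10-L1 DRG and 14320 to 36400 in the L3-L5 DRG libraries. Kcnmb1 is known from smooth muscle. The 10 endothelial and mural markers, none of them at 0 in every library of a ganglion, summed to 245 to 1544 CPM in TG, 65.9 to 560 in NG/JG, 569 to 1823 in T10-L1 DRG and 119 to 2295 in the L3-L5 DRG libraries. In NG/JG, where Kcnmb1 was at the floor, the mural markers Acta2 and Rgs5 had 0 to 7 and 1 to 2 reads, but Pdgfrb had 0 to 900, Myl9 59 to 1452 and the endothelial Cldn5 358 to 685. Within L3-L5 DRG, Kcnmb1 was at 30.2 and 36.4 RPKM in libraries 2 and 3, with the list at 119 and 180 CPM, Acta2 at 4 and 7 reads, Rgs5 at 2 and 306 and Pdgfrb at 195 and 593, and at 1.56 RPKM in library 4, with the list at 2295 CPM. In L3-L5 DRG library 1 the list was at 474 CPM. Over L3-L5 DRG libraries 1 to 4 Kcnmb1 had 576, 1276, 1853 and 31 reads, with the sensory neuron markers at 3853, 10650, 12000 and 1229 CPM. Both had the same order there, but not in TG or T10-L1 DRG. The part of these cells and of the neurons in the Kcnmb1 result was not tested.

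**Figure D5:**
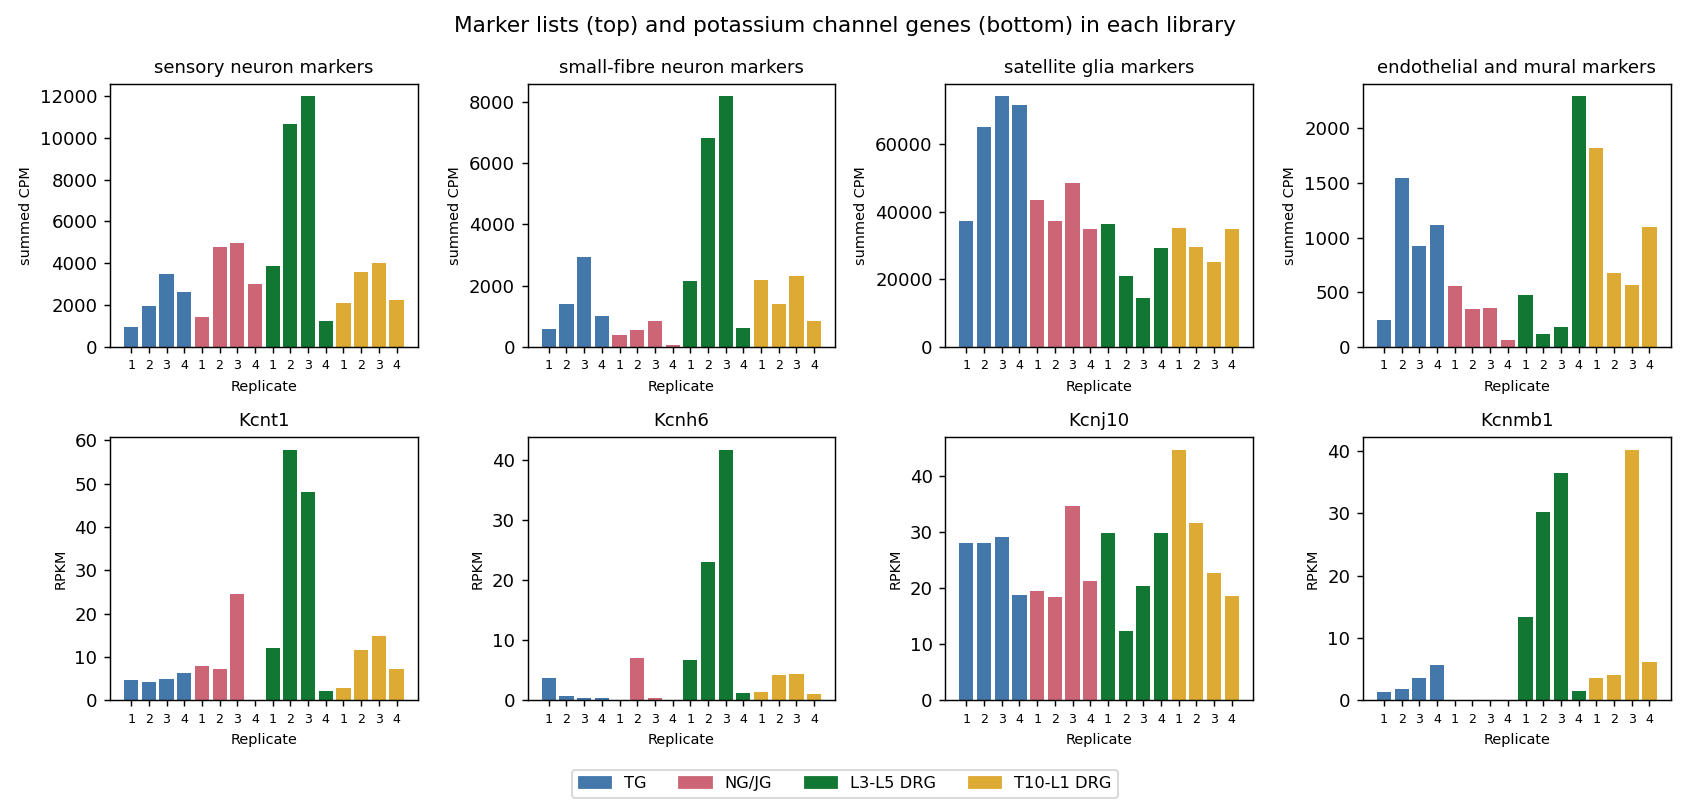
Summed CPM of 4 marker lists (top) and RPKM of 4 members (bottom) in each library, coloured by ganglion and numbered by replicate, on linear axes from 0. Kcnt1 and Kcnh6 are highest in L3-L5 DRG libraries 2 and 3 like the neuron lists, and Kcnj10 varies little. Kcnmb1 is high in L3-L5 DRG libraries 2 and 3, where the neuron lists are high and the endothelial and mural list is low.

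Potassium channels work with partner proteins, and a list of 22 such genes was examined beside the members. It holds the Kcnip and Dpp subunits of Kcnd channels, the Lrrc subunits of the large-conductance channel, the sulfonylurea receptors Abcc8 and Abcc9, and anchoring proteins such as Cntnap2, Dlg4 and Lgi1. None of the 19 partners tested was called over the 4 ganglia by edgeR, and 1 had an unadjusted p under 0.05 (5.26%, against 17.5% of all genes). In pairs, 1 partner was called, 1 of the 17 tested between TG and T10-L1 DRG (5.88%, against 5.87% of all genes). This was Kcnip4, lower in TG than in T10-L1 DRG (log2 fold change -3.13 ± 0.80, SE; adjusted p = 0.0464 by edgeR). It had 5, 83, 87 and 118 reads in TG and 553, 2061, 2191 and 2060 in T10-L1 DRG. The call was lost in 7 of the 8 cases in which 1 library was left out, at adjusted p of 0.0887 to 0.134, and was kept without TG library 1, and with all 16 libraries in one fit the adjusted p was 0.276. In the same comparison the Kcnd channels it binds were not called.

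The members close to the read threshold were examined for completeness. Kcna3, Kcne1l, Kcnf1 and Kcnj9 were just inside, with 10 or more reads in 4 libraries each. Kcng1, Kcng3 and Kcnj6, each with 10 or more reads in 3 libraries, were just outside. The other 24 symbols that were not kept include Kcnq1, Kcnq3, Kcnd2 and Kcna7.

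Other subfamily leaders were low or carried by few libraries. Kcns3, a silent partner of Kcnb channels, averaged 11.4 ± 10.5 RPKM in L3-L5 DRG and 2.90 ± 5.78 in NG/JG. Kcng2, another silent subunit, was at 0 reads in 7 of the 16 libraries. Kcnu1, known from sperm, averaged 0.152 to 1.09 RPKM.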

How the data were processed

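The authors sequenced single reads of SMART-seq-2 libraries, aligned them with TopHat2 to mm9 and counted them per gene symbol with HTSeq. The deposited values are raw counts, 1 file per library, without normalization. Tool versions, annotation and strand setting are not given in the sources used here. The counter's own summary rows name no gene and were left out of library sizes and tests, and the reads they list as outside genes were 29.6% to 66.6% of the uniquely aligned reads.

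Pairs of ganglia were compared on their own 8 libraries, and the 4 ganglia on all 16, with the quasi-likelihood test of edgeR 4.0.16 (TMM factors, filterByExpr) in R 4.3.3, at an adjusted p (Benjamini-Hochberg, all genes tested) under 0.05. Alternatives were DESeq2 1.42.0, RLE factors, no filter, a replicate block, one fit of all libraries and leaving out each library. DESeq2 was run without a read filter and tested 16139 to 19704 genes, against 14180 past the members' read threshold. Its shares of all genes therefore include genes with few reads. The fits were checked on simulated data, where edgeR called no gene when nothing had been changed and DESeq2 did. DESeq2's counts of calls are therefore less strict. When genes had been changed, edgeR missed most of them and found fewer than DESeq2, so no call by edgeR does not mean no difference. Most of DESeq2's calls in the simulated pair, NG/JG against T10-L1 DRG, were of unchanged genes, as were many over the 4 ganglia. Few of edgeR's calls were. A call by DESeq2 alone is therefore weak evidence of a difference. The simulation used the spread that edgeR had estimated. RPKM used union exon lengths of GENCODE M1 (NCBIM37, the mm9 assembly), found for 62 of the 63 members. Folds against a group with 3 reads or fewer in every library were computed against 3 reads per library. Where the count was 0 these floors cover counting error and nothing else, and for counts of 1 to 3 they do not cover it. PCR reads are not independent molecules. Libraries had 4735624 to 13333318 reads on genes. No 2 libraries held identical counts.

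Genes were named by a rule: members called, those with the 3 smallest p in each direction of each pair, the leader of each subfamily, the 5 highest in each ganglion, members with 1 ganglion wholly apart, 4 that the study discusses and those at the read threshold. Others were named after their values were seen, and some genes are not reported here. Members and lists were chosen with earlier results of these data known. Same-numbered libraries deviated from their group means with correlations of -0.118 to 0.178, so the numbers were not taken to pair the libraries.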

Additional observations from a re-analysis of the deposited data

Results flagged for a closer look

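Within a ganglion, a library was picked out when its RPKM lay far from those of the 3 others relative to the range of all 4, by Dixon's critical value for 4 samples. Of 128 groups of 4 examined among the named genes, 35 (27.3%) held such a library, against 16.25% of such groups over all genes past the read threshold. Chance flags about 1 in 20 groups of normally distributed values, but a group with 3 libraries at 0 is always picked out, as in 14 of the 35. NG/JG libraries 1 and 3 held 13 of the 35 values.

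In TG, library 3 was high for Kcna4 at 2.24 RPKM, Kcng2 at 10.5, Kcnj3 at 1.32 and Kcnn4 at 53.4. TG library 1 was high for Kcna6 at 26.5 RPKM, against 9.24 at most in the others, and for Kcnh6 at 3.77. TG library 2 was high for Kcnma1 at 3.39 RPKM, and TG library 4 was low for Kcnj10 at 18.8, against 28.1 at least in the others.

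In NG/JG, library 3 was high for Kcnk3 at 23.0 RPKM, Kcns3 at 11.6 and Kcnj12 at 0.603. NG/JG library 2 was high for Kcnf1 at 7.37 RPKM and Kcnh6 at 7.01. NG/JG library 1 was high for Kcnk13 at 12.3 RPKM, Kcng1 at 3.61, Kcnma1 at 1.11 and Kcnu1 at 0.608. For Kcnk13 the next value was 0.0888 RPKM.

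In L3-L5 DRG, library 4 was high for Kcne1l at 6.16 RPKM and Kcnj9 at 3.16, and library 3 was high for Kcns3 at 27.1 and low for Kcnj12 at 0.659. In T10-L1 DRG, library 3 was high for Kcnmb1 at 40.2 RPKM, against 6.16 at most in the others, and for Kcnj3 at 1.31. T10-L1 DRG library 4 was high for Kcng2 at 8.40 RPKM, library 2 for Kcne1l at 1.42, and library 1 for Kcng1 at 0.237 and Kcng3 at 0.228.

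The other 8 values stood for 1 read where the 3 other libraries had 0. They were Kcnf1 at 0.0411 RPKM and Kcnj6 at 0.0337 in TG library 2, Kcne4 at 0.0560 and Kcnj9 at 0.0425 in NG/JG library 1, and Kcna3 at 0.0702, Kcna4 at 0.0286, Kcne1l at 0.0896 and Kcnj6 at 0.0237 in NG/JG library 3.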

How the results depend on the processing

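With DESeq2 in place of edgeR, 12 members were called over the 4 ganglia, 7 in TG against NG/JG, 6 in TG against L3-L5 DRG, 4 in TG against T10-L1 DRG, 13 in NG/JG against L3-L5 DRG, 10 in NG/JG against T10-L1 DRG and 2 in L3-L5 against T10-L1 DRG. With all 16 libraries in one fit, 3 members were called in TG against NG/JG (Kcnmb1, Kcna4 and Kcne4), 2 in NG/JG against L3-L5 DRG and 2 in NG/JG against T10-L1 DRG (Kcnmb1 and Kcna4 in both), and 0 in TG against T10-L1 DRG. The cause was not tested. With each library left out, the count over the 4 ganglia ranged from 1 to 4, that of TG against L3-L5 DRG from 0 to 6 and that of TG against T10-L1 DRG from 0 to 7, the highest values coming without TG library 1 and, over the 4 ganglia, also without NG/JG library 2. The 4 other pairs gave 0 in every such case. With the replicate number as a block, 0 members were called in TG against T10-L1 DRG and 2 over the 4 ganglia, where Kcnv1 had an adjusted p of 0.115. Same-numbered libraries share only a number, and every library correlated best with its own number in NG/JG against L3-L5 DRG alone (4 of 4). RLE factors and no filter on low counts left each of the 7 counts of called members as it was. No log2 fold change printed for a gene changed sign under the alternatives run. The members' medians printed for 4 pairs kept their sign, but that of TG against NG/JG went from 0.02 to -0.09 with RLE factors, and the median of all genes in NG/JG against either dorsal root ganglion group, near 0 in edgeR's test of the pair, was as low as -0.58 and -0.65 with the replicate block. In NG/JG, 3 reads correspond to 0.310 to 0.417 CPM, below which a member cannot be measured.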
